A study of Mus musculus with 19 samples.

Results

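Kupffer cells are the macrophages that live in the liver, and the genes that mark them were compared here with genes of macrophages that derive from recruited blood monocytes. The set holds 33 genes of the 39179 gene identifiers in the count table. The genes were listed by name, with no threshold on a measured value, and comprise 6 resident genes (Clec4f, Vsig4, Timd4, Cd5l, Marco and Folr2), 5 recruited genes (Ccr2, Cx3cr1, Trem2, Gpnmb and Itgax) and 22 genes that both kinds of macrophage can express. The samples were mouse liver tumours, of which the 10 named tumour 04 to tumour 13 were analysed out of 19 samples in the series. Each mouse was male, was heterozygous for the Ctnnb1tm1Mmt allele, which yields stable β-catenin, and homozygous for the MYC transgene Gt(ROSA)26Sortm1(MYC)Djmy. Cre recombinase was delivered by the virus AAV8.TBG.PI.Cre.rBG at 640000000 genome copies per mouse, and its TBG promoter is active in hepatocytes, so the engineered alleles were switched in hepatocytes and not in the macrophages measured here. Per the study's methods the mice were induced as adults on a mixed background, their immune system was intact, and the tumours were taken at the clinical end point. The study asked how tumours of 1 genotype differ from one another. Tumour-free liver (3 controls and 3 high AAV controls) was not analysed here, and the values are therefore compared between tumours only.

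Kupffer cells are seeded in the embryo, sit inside the sinusoids beside the endothelium and stellate cells, and clear particles, complement-coated material and old red cells from the blood. Their survival depends on the receptor CSF1R and its ligands CSF1 and IL34, and the transcription factor PU.1, the product of Spi1, sets up the expression of Csf1r and of many other myeloid genes. Monocytes that carry CCR2 follow the chemokine CCL2 into injured liver, where they become macrophages that can carry TREM2 and GPNMB and can in time take on resident markers. RNA from a whole piece of tumour cannot tell fewer cells of a type from less RNA per cell.

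Labelled tissue and depth were checked first. The hepatocyte marker Alb was at 13041 to 23970 CPM, which is counts per 1000000 counts after scaling, and the β-catenin target Glul at 5173 to 14687 CPM. Counts assigned to genes ranged from 11687034 to 36964427 per tumour, so that 3 counts corresponded to between 0.0812 and 0.257 CPM before scaling, and intervals and floors given here cover counting error only. Tumours 05, 06 and 07 stood apart in 2 RNAs without a poly(A) tail, Rpph1 at 30.0 to 49.7 CPM against 4.23 CPM or less elsewhere and Rmrp at 17.0 to 30.4 CPM against 2.15 CPM or less. The part of this difference in the macrophage results was not tested. The column names of the table carry a tag, whose meaning is not given, with the first part RMH4 in tumours 04 to 06, RMH18 in tumours 07 and 08 and RMH35 in tumours 09 to 13. If a tag stands for a mouse, tumours that share it are not independent, and the p-values below then measure only the spread between these tumours.

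Promoters show where the members stand next to PU.1 in sequence. For 26 of the 33 genes a promoter sequence was at hand (RefSeq, GRCm38.p6), taken as 250 bases before to 50 bases after the start, with 29 promoters in all. Spi1, Csf1r, C1qa, Adgre1, Tyrobp, Cd14 and Slc40a1 have a RefSeq position, but no promoter sequence was at hand, so they were not searched. The letters GAGGAAG, a core bound by PU.1, stood on either strand in 11 of these 29 promoters (37.9%) and in 13.6% of all 32851 promoters of that length. The 10 genes that held it were Cd5l, Marco, Trem2, C1qc, Fcgr1, Fcgr3, Itgam, Mrc1, Ctss and Laptm5. The letters TGCTGAC, bound by Maf factors, were found at Timd4 and Fcgr3 (3 promoters, 10.3%, against 4.67% of all). The promoters of Fcgr3 overlap, so the same site counts more than once in this share and in that of GAGGAAG. The letters TCACGTG, bound by MiT/TFE factors, were found at no member and in 3.77% of all promoters. Both strands were searched for each, none of the 3 motifs contains another, and a match is a description of the sequence only. Promoters of 5 genes that carry the results below are printed 5′ to 3′ in the direction of the gene, with GAGGAAG or its reverse complement in capitals. Clec4f and Cd5l are resident genes that were low together in tumour 05, Trem2 is a recruited gene, and C1qb and C1qc are neighbours whose RNAs followed each other closely.
Clec4f, chr6:83656067-83656366, reverse strand: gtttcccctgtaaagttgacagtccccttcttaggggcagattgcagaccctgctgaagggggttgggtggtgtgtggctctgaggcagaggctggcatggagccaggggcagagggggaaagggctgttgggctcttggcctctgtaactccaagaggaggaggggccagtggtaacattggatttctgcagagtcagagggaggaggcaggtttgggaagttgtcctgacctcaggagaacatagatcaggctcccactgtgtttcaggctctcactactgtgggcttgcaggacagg
Cd5l, chr3:87357631-87357930, forward strand: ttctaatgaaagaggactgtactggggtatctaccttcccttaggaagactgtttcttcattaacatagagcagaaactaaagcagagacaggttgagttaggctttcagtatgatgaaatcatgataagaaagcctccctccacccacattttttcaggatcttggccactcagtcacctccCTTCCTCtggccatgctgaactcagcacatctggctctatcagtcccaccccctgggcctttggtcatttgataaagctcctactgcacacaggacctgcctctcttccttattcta
Trem2, chr17:48346151-48346450, forward strand: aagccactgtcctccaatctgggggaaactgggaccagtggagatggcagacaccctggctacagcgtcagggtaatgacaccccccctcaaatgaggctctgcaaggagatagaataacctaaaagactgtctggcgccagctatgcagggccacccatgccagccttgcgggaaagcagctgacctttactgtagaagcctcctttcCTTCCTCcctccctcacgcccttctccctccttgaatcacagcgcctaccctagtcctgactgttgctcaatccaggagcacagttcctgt
C1qb, chr4:136886151-136886450, reverse strand: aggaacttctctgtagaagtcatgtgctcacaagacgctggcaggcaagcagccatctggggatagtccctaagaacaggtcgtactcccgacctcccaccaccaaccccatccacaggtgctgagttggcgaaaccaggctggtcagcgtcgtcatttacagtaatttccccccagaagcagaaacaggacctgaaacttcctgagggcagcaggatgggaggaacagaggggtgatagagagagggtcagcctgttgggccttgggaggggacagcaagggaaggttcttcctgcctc
C1qc, chr4:136892865-136893164, reverse strand: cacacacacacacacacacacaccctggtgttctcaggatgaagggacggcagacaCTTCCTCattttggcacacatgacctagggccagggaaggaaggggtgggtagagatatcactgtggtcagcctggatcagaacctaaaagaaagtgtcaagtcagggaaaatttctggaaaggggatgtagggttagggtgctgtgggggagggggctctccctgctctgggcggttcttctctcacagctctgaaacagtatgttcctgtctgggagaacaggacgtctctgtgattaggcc
The match lies 184 bases into the Cd5l window, 210 bases into that of Trem2 and 57 bases into that of C1qc, counted from 1 at the 5′ end to the first base of the match. The windows of Clec4f and C1qb hold none.

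The resident genes were far lower in tumour 05 than in most of the other tumours. Clec4f (ENSMUSG00000014542, chr6:83644542-83656116 on GRCm38), a lectin that in the mouse is a defining marker of Kupffer cells, was at 16.1, 0.575, 59.3, 16.2, 21.3, 43.7, 22.7, 23.0, 26.7 and 16.1 CPM in tumours 04 to 13 in order. The 9 counts behind the value of tumour 05 give a 95% exact Poisson interval of 0.263 to 1.09 CPM. Tumour 05 thus had 2.53% of the median of the other tumours (22.7 CPM), and those 9 lay within 3.69-fold of one another. Vsig4, a receptor for complement C3 fragments (chrX:96247201-96293438), was at 4.65, 0.320, 10.6, 7.26, 5.26, 9.40, 3.61, 3.50, 6.25 and 3.28 CPM in the same order. Tumour 05 was again the lowest, with 5 counts and an interval of 0.104 to 0.746 CPM. Folr2, a folate receptor (chr7:101839988-101857190), was at 3.61, 0.384, 4.24, 2.66, 2.43, 4.00, 3.03, 2.62, 3.12 and 2.46 CPM. Without tumour 05 it was the most even of the 6 genes, spanning 1.74-fold, and tumour 05 had 12.7% of the median of the others. Cd5l, a secreted scavenger protein also called AIM (chr3:87357881-87371074), was at 19.6, 2.43, 91.7, 29.7, 25.7, 59.4, 23.8, 70.2, 55.1 and 48.1 CPM. With 38 counts it was the resident gene best measured in tumour 05, where it stood at an interval of 1.72 to 3.33 CPM.

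The last pair of resident genes was scarce and varied beyond tumour 05. Timd4, a receptor for phosphatidylserine on dying cells that marks long-lived Kupffer cells (chr11:46810786-46844333), was at 1.04, 0.128, 0.909, 1.95, 0.730, 2.49, 0.342, 0.437, 0.858 and 0.0264 CPM. Its lowest value was in tumour 13, where a single count gives an interval of 0.000670 to 0.147 CPM. In tumour 05 the interval from 2 counts was 0.0155 to 0.462 CPM, so these 2 tumours are not separated at this depth. Tumour 13 is the deepest library, and Clec4f and Cd5l were at 607 and 1817 counts in it. Marco, a scavenger receptor for bacteria and particles (chr1:120474538-120505024), was at 0.208, 0, 1.33, 0.443, 1.36, 4.37, 1.51, 1.12, 3.81 and 0.344 CPM. Against the 3-count floor of 0.192 CPM after scaling, tumour 05 was at least 6.95-fold lower than the median of the others. Marco was also low in tumours 04, 07 and 13, in which Clec4f was close to 16 CPM.

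The recruited genes were also low in tumour 05, but by less. Ccr2, the receptor that brings monocytes out of the blood (chr9:124101918-124109140), was at 0.763, 0.256, 1.21, 1.51, 0.730, 4.49, 0.342, 1.31, 1.20 and 0.661 CPM. Tumour 09 alone exceeded 1.51 CPM. Cx3cr1, the receptor of fractalkine on patrolling monocytes and many tissue macrophages (chr9:120048683-120068296), was at 3.89, 1.60, 4.91, 4.96, 3.07, 6.67, 1.81, 6.37, 3.98 and 3.99 CPM. Trem2, a lipid-sensing receptor of macrophages at sites of damage (chr17:48346401-48352276), was at 8.19, 1.02, 6.36, 7.80, 4.04, 5.28, 1.51, 3.62, 3.50 and 2.46 CPM. Tumours 05 and 10 were the lowest in each of these 3 genes. Gpnmb, a glycoprotein of lysosome-rich macrophages (chr6:49036518-49058182), was at 41.8, 5.50, 12.9, 27.4, 14.99, 12.4, 8.10, 6.43, 6.04 and 24.2 CPM. Its high values were in tumours 04, 07 and 13, and tumours 05, 11 and 12 differed little. Itgax, the integrin CD11c of dendritic cells and some macrophages (chr7:128129526-128150657), was at 5.00, 0.831, 2.42, 2.57, 1.51, 6.31, 1.51, 2.50, 3.36 and 1.85 CPM. In tumour 05 the 4 recruited genes with at least 5 counts there had between 25.3% (Trem2) and 42.8% (Gpnmb) of the median of the other tumours, while the 4 resident genes with at least 5 counts had 12.7% or less. The genes below that depth were Ccr2 at 21.3% with 4 counts (exact Poisson interval 0.0697 to 0.655 CPM), Timd4 at 14.9% with 2 counts (0.0155 to 0.462 CPM) and Marco with 0 counts, so that a difference of Ccr2 from Folr2 or Timd4 was not detectable at this depth.

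Markers of other cell types were mixed in tumour 05. Of the 15 endothelial genes 3 were lowest there, among them the sinusoidal genes Clec4g at 0.320 CPM (median of all tumours 3.78) and Oit3 at 1.28 CPM (median 4.47). The sinusoidal gene Stab2, at 31.6 CPM, was instead above its median of 28.7, and Lyve1, at 5.05 CPM, was near its median of 5.96. Pecam1 (50.2 CPM) and Flt1 (43.0 CPM) were the second highest, and the sum of the list, 395 CPM, was above its median of 321 CPM. Of the 15 matrix and stellate genes 3 were lowest there, among them the stellate genes Lrat at 2.37 CPM (median 5.83) and Reln at 4.54 CPM (median 13.1). Acta2 (5.50 CPM, median 12.6), Ecm1 (17.5, median 28.6), Lum (2.75, median 4.43) and Des (3.90, median 4.09) were also below their medians. Pdgfrb, at 21.6 CPM (median 17.3), and Colec11, at 11.5 CPM (median 10.8), were above theirs. Col4a1 was highest there at 712 CPM, and the sum of the list, 2215 CPM, was above its median of 1136 CPM. The summed B cell genes (2.05 CPM, 3 of 7 lowest) and dendritic cell genes (3.00 CPM, 3 of 9 lowest) were at their minimum in tumour 05, and the T and NK cell genes, at 1.79 CPM, were the second lowest. Among 10 hepatocyte genes 5 were lowest there, and among 22 proliferation genes 12, while the share over all genes was not computed. The part of these shifts in the resident genes was not tested.

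**Figure D1:**
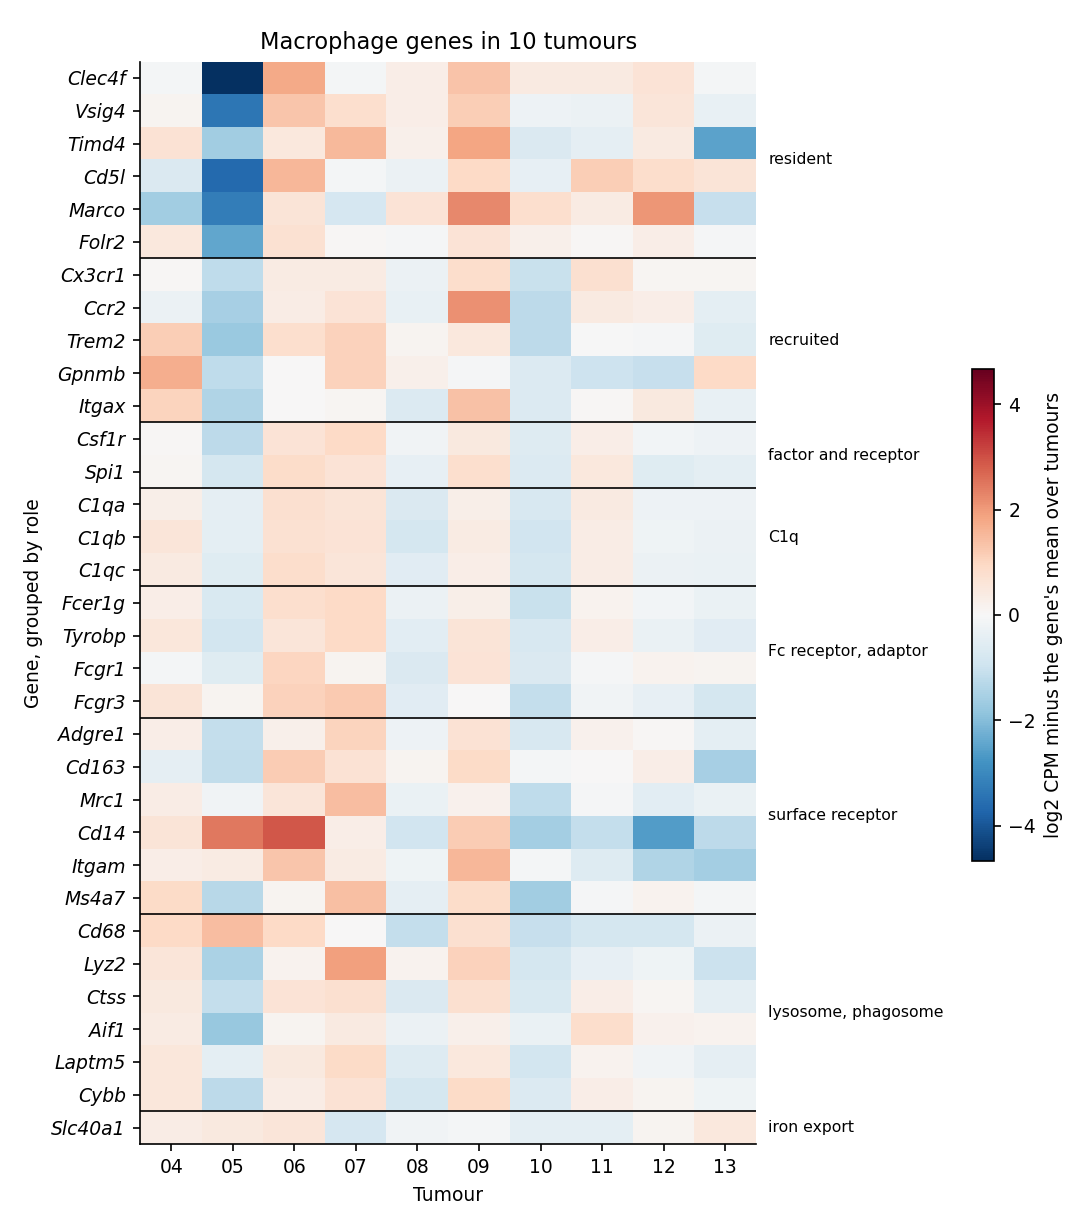
Deviation of each of the 33 genes (rows, grouped by role) from its own mean over the 10 tumours (columns), in log2 CPM with a prior count of 2. The resident genes form the darkest block in tumour 05, where Cd14 and Cd68 were instead above their means.

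The genes that both kinds of macrophage express were less reduced in tumour 05, with at least 23.5% (Aif1) of the median of the other tumours. C1qa, C1qb and C1qc encode the chains of complement C1q, which tissue macrophages secrete, and lie side by side on chromosome 4. C1qa ranged from 26.0 CPM in tumour 10 through a median of 45.0 to 72.9 CPM in tumour 06. C1qb ranged from 28.3 through 55.5 to 86.3 CPM and C1qc from 26.1 through 47.9 to 81.4 CPM. Tumour 05 was the third lowest for C1qa and C1qb and the second lowest for C1qc, at 53.6% to 61.0% of the median of the others, and its values lay inside the range of the other tumours for these 3 genes. Pairwise correlations among the 3 over the 10 tumours were 0.98 to 0.99. Set against the sum of the C1q genes, the 6 resident genes summed to 3.79% in tumour 05, 23.6% in tumour 04 and 27.2% in tumour 07. In the 7 other tumours this share was 55.3% to 79.7%, so that 3 tumours stood below the rest. The 5 recruited genes summed to 9.10% of the C1q genes in tumour 05, the lowest, and to 31.1% in tumour 04, the highest. Single genes carried much of both sums. Gpnmb made up 31.8% (tumour 11) to 73.0% (tumour 13) of the recruited sum and 70.1% in tumour 04, and without it the recruited share was 9.31% in tumour 04, 3.67% in tumour 05, still the lowest, and 12.7% in tumour 09, then the highest. Cd5l made up 43.3% to 69.6% of the resident sum, and without it the resident share was 1.39%, 13.4% and 13.3% in tumours 05, 04 and 07, and 16.8% to 38.9% in the others, so that these 3 tumours stayed lowest with a smaller gap. These shares compare tumours with one another, since they are not divided by gene length. This ratio was chosen after the values had been seen.

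**Figure D2:**
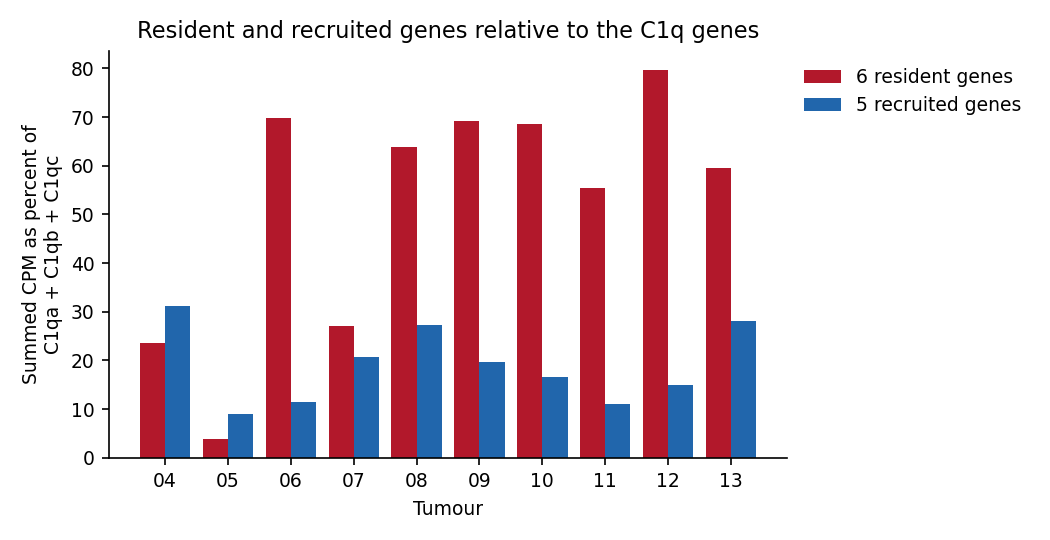
Summed CPM of the 6 resident genes (red) and the 5 recruited genes (blue) in each tumour, as a percentage of the summed CPM of C1qa, C1qb and C1qc. The resident share was 3.79% in tumour 05 and at least 55.3% in 7 tumours.

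Spi1 and Csf1r stand at the head of the macrophage programme. Spi1 ranged from 2.94 CPM in tumour 05 through a median of 4.80 to 9.58 CPM in tumour 06. Csf1r ranged from 13.6 CPM in tumour 05 through 31.2 to 62.2 CPM in tumour 07. Both were lowest in tumour 05, though only 1.15-fold below the next tumour for Spi1. Of the Fc receptors and their adaptors, Fcer1g ranged from 4.10 to 16.3 CPM (median 8.59), Tyrobp, the adaptor of TREM2, from 6.84 to 23.4 (12.6), Fcgr1 from 1.80 to 6.00 (3.00) and Fcgr3 from 3.17 to 16.5 CPM (6.64). Tumour 05 was the lowest of the 10 for Tyrobp alone among these 4.

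Surface receptors fell into unlike patterns. Adgre1, which encodes the F4/80 antigen, ranged from 3.64 CPM in tumour 05 through 8.89 to 16.7 CPM in tumour 07. Cd163, a haemoglobin scavenger receptor, ranged from 0.926 CPM in tumour 13 through 3.10 to 6.79 CPM in tumour 06, and Ms4a7 from 0.439 CPM in tumour 10 through 1.60 to 4.25 CPM in tumour 07. Mrc1, the mannose receptor of macrophages and of sinusoidal endothelium, was at 13.9, 9.78, 16.5, 30.1, 8.81, 12.7, 4.78, 10.6, 7.86 and 8.81 CPM in tumours 04 to 13. For Mrc1 tumour 05 was in the middle of the range and tumour 07 was far above the rest. Cd14, the co-receptor for bacterial lipopolysaccharide, ranged from 1.17 CPM in tumour 12 through a median of 6.85 to 58.5 CPM in tumour 06 and was at 43.2 CPM in tumour 05. Itgam, the integrin CD11b of monocytes and neutrophils, ranged from 0.582 CPM in tumour 13 through 2.14 to 5.94 CPM in tumour 09. The summed level of the 10 neutrophil markers was, like Cd14, highest in tumour 06 (35.6 CPM). It was lowest in tumour 13 (1.69 CPM), unlike Cd14, and was 11.8 CPM in tumour 05. A correlation of this sum with Cd14 was not computed. The neutrophil gene Ly6g was at 0.121 CPM or less in every tumour, and the part of neutrophils in Cd14 and Itgam was not tested.

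Among genes of the lysosome, phagosome and cytoplasm, Lyz2 and Cd68 reached the highest values in a single tumour. Cd68, a lysosomal glycoprotein, ranged from 11.5 CPM in tumour 08 through 23.3 to 68.5 CPM in tumour 05, and was the only one of the 33 genes whose highest value was in tumour 05. Lyz2, the lysozyme of macrophages and other myeloid cells, was at 50.04, 12.0, 38.0, 125, 37.9, 70.0, 19.1, 25.9, 28.9 and 16.8 CPM in tumours 04 to 13. Its near copy Lyz1 was at 4.51 CPM in tumour 04 and at 1.27 CPM or less elsewhere, and reads aligned to both would fall among those with more than 1 alignment, which were not counted. Ctss, a lysosomal protease, ranged from 10.2 to 37.1 CPM (median 25.4), Laptm5 from 16.1 to 54.7 (29.3), Cybb, the catalytic subunit of the phagocyte oxidase, from 3.71 to 16.6 (10.3) and Aif1, which encodes the cytoplasmic protein IBA1, from 0.895 to 5.87 CPM (3.77). Tumour 05 was lowest for Lyz2, Ctss, Cybb and Aif1. For Aif1 it was apart from the others, which lay within 2.19-fold of one another. Slc40a1, the iron exporter ferroportin, ranged from 47.3 CPM in tumour 07 through 81.3 to 118 CPM in tumour 06, with 111 CPM in tumour 05.

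Levels of different genes were compared per kilobase of exon (exon lengths of GENCODE M39). By the median over tumours the highest were C1qa at 27.95, Cd5l at 19.0, Tyrobp at 18.5, Cd68 at 17.0 and C1qc at 16.8 CPM per kilobase. Clec4f was at 5.96, Gpnmb at 1.90 and Folr2 at 1.78 CPM per kilobase. The lowest were Timd4 at 0.20 and Ccr2 at 0.145 CPM per kilobase, the markers of long-lived Kupffer cells and of newly arrived monocytes.

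Spread between tumours was measured as the SD of log2 CPM, and an SD above 1 was counted. It was above 1 for 9 of the 33 genes (27.3%), against 10.1% of the 14786 genes with a mean of at least 0.5 CPM. The median SD was 0.77 for the 33 genes and 0.38 for all of these. The 9 were 5 of the 6 resident genes (Clec4f 1.75, Marco 1.69, Cd5l 1.47, Timd4 1.34 and Vsig4 1.31), 1 of the 5 recruited genes (Ccr2 1.04) and 3 of the 22 others (Cd14 1.81, Itgam 1.02 and Lyz2 1.01). Gpnmb at 0.998 and Cd68 and Trem2 at 0.95 lay just under the threshold. Without tumour 05 the count was 4 (Cd14 1.68, Marco 1.32, Timd4 1.29 and Itgam 1.07), against 9.48% of the genes then tested, and the SD of Clec4f was 0.66. Of the 33 genes 18 had their lowest value in tumour 05 and 8 in tumour 10, and 29 had their highest in tumour 06 (12), 07 (9) or 09 (8). The shares of all genes with a lowest or highest value in these tumours were not computed. In tumour 05, 5 of 10 hepatocyte and 12 of 22 proliferation genes were also lowest, but 0 of 10 neutrophil genes and 3 of 15 β-catenin targets.

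The resident score, the mean log2 CPM of the 6 resident genes, was 1.83, -1.16, 3.08, 2.24, 2.19, 3.36, 2.02, 2.23, 2.80 and 1.43 in tumours 04 to 13. It averaged 2.00 ± 1.25 (SD, n = 10) and spanned 23.0-fold, or 3.82-fold without tumour 05. The span depends on the prior count, with a range of 4.52 log2 units at 2 and of 5.06 at 0.5. The recruited score, taken over the 5 recruited genes, was 2.51, 0.37, 2.09, 2.44, 1.61, 2.74, 0.83, 1.83, 1.73 and 1.71. It averaged 1.79 ± 0.74 (SD, n = 10) and spanned 5.19-fold, or 3.75-fold without tumour 05. Tumour 09 had the highest and tumour 05 the lowest of both scores. Resident minus recruited, which is read only between tumours, was lowest in tumour 05 at -1.53. It was -0.69, -0.28 and -0.20 in tumours 04, 13 and 07 and between 0.39 and 1.19 in the other 6, with the highest value in tumour 10. Tumours 05 and 06 carry the same full tag, yet had the lowest and the second highest resident scores. Scores of the RMH4 tumours ran from -1.16 to 3.08, and those of the RMH35 tumours from 1.43 to 3.36.

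**Figure D3:**
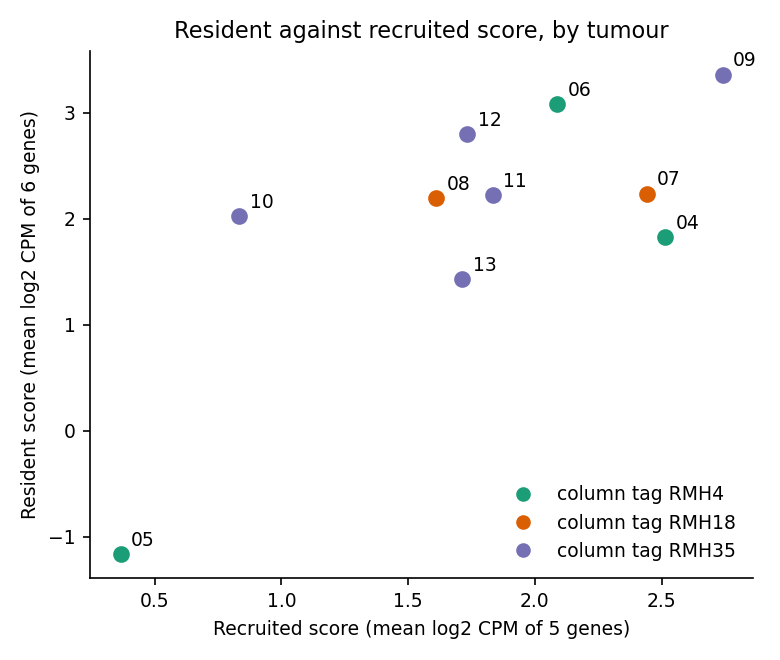
Resident score against recruited score (both mean log2 CPM) for each of the 10 tumours, coloured by the first part of the column tag. Tumour 05 lies at the lower left (-1.16 and 0.37), and tumours 04, 07 and 13 lie toward the recruited side of the others.

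Correlations between members are given as a description over 10 tumours, where all genes of a tumour share its library and depth and every tumour but 04 shares its tag with another. The median r was 0.75 over the 15 pairs of resident genes, 0.72 over the 10 pairs of recruited genes and 0.64 over the 30 pairs of a resident with a recruited gene. Without tumour 05 these medians were 0.46, 0.57 and 0.36. The resident and recruited scores had r = 0.73, and r = 0.39 without tumour 05, so the relation was weaker without it. Csf1r went most closely with Adgre1 (0.94), Ctss (0.92), Tyrobp (0.91) and Fcer1g (0.91). Cd14 went with Cd68 (0.89) and Itgam (0.81), and had r = -0.27 with Clec4f, or 0.57 without tumour 05. Genes outside the set that were most like the resident score over the 10 tumours were Fabp7 (r = 0.95), Gdf2 (0.93), Ptgs1 (0.93), Tnik (0.93) and Tgfbi (0.92), each lowest in tumour 05, with r of 0.91, 0.77, 0.65, 0.70 and 0.91 without it. Gdf2 encodes the ligand BMP9 and ranged from 0.384 CPM in tumour 05 through 2.61 to 6.91 CPM in tumour 06. The genes most like the recruited score were Pilra (0.97), Entpd1 (0.96), Cd300ld (0.96), Sla (0.96) and Rac2 (0.95), with r of at least 0.92 without tumour 05, which are myeloid or leukocyte genes except for the ectonucleotidase Entpd1, which endothelium also makes.

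The study looked at angiogenesis and proliferation in these tumours, and Kupffer cells lie on the sinusoidal endothelium. The score of 15 endothelial genes was 5.17 log2 CPM in tumour 07, the highest, 4.48 in tumour 09 and 2.47 in tumour 11, the lowest. Lyz2 and Mrc1 rose with it in edgeR's quasi-likelihood test with Benjamini-Hochberg adjustment over all genes. Lyz2 was higher by 0.80 ± 0.15 log2 units (SE) for each SD of the score (adjusted p = 0.0120), and Mrc1 by 0.55 ± 0.13 (adjusted p = 0.0356). Thus 2 of the 33 genes were higher with the score, against 2.95% of the 14771 genes tested, and 0 were lower, against 0.44%. An unadjusted p under 0.05 was found for 12 members (36.4%), against 16.1% of genes tested. Without tumour 07 this count was 7 (21.2%), against 17.2% of genes tested, and without tumour 11 it was 19 (57.6%), against 14.4%, so that its size depends on single tumours. DESeq2 called 4 (Fcgr3, Itgam, Lyz2 and Mrc1), against 6.48%. The matrix and stellate genes moved with the same score, with 9 of 15 called higher by edgeR, 13 at an unadjusted p under 0.05 and 12 called by DESeq2, and the part of stroma as a whole in the members' slopes was not tested. Slopes were above 0 for 30 of the 33 genes and for 41.7% of all genes, with a median of 0.38 and -0.03 log2 units per SD. Among resident genes Timd4 had the steepest slope (0.95 ± 0.33, adjusted p = 0.172), and Cd5l and Marco had slopes of -0.12 and -0.03. The call for Lyz2 was lost without tumour 07 (slope 0.56, adjusted p = 0.110), and that for Mrc1 without tumour 07 (slope 0.32, adjusted p = 0.265). Its call was also lost without tumour 04, 12 or 13, at slopes of 0.59, 0.56 and 0.57 (adjusted p = 0.0525, 0.0755 and 0.0719), and with the tag family in the fit (slope 0.50, adjusted p = 0.281). Over its alternatives the adjusted p ranged up to 0.110 for Lyz2 and 0.368 for Mrc1. Tumour 07 was the library with the fewest counts assigned to genes (11687034). Its share of reads with more than 1 alignment, 57.9%, was the largest, and the part of depth in these slopes was not tested. Tumour 07 also had the highest summed level of the 5 blood genes, at 5931 CPM against a median of 241 CPM. All 5 were measured, the lowest sum being 104 CPM in tumour 13, and the part of blood in these slopes was not tested.

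In edgeR's test no member was called with the scores of β-catenin targets or of proliferation genes. Active β-catenin is known for liver cancers with few immune cells. With the score of 15 β-catenin targets, edgeR called 0 of the 33 genes, against 0.0135% of genes tested called higher and 0% called lower, and 4 members (12.1%) had an unadjusted p under 0.05, against 15.2% of genes tested. That count was 9 (27.3%) without tumour 05, against 11.6% of genes tested, 9 without tumour 07, against 20.2%, and 2 (6.06%) without tumour 06, against 11.9%, so that the share was not steadily below or above that of all genes. With all 10 tumours the 4 were Cd14 (slope -1.24 ± 0.32), Cd68 (-0.70 ± 0.18), Itgam (-0.61 ± 0.23) and Slc40a1 (-0.32 ± 0.12). DESeq2 called Cd14 and Cd68, against 3.82% of genes tested, and edgeR called both without tumour 07, when it called 1.97% of genes tested. Without tumours 05, 06 and 07, 19 of the 33 members had an unadjusted p under 0.05, against 15.5% of genes tested, and edgeR called Lyz2, against 1.68%. Slopes were below 0 for 26 of the 33 genes and above 0 for 7, against 51.3% of all genes above 0. The median slope was -0.13 for the members, while the median over all genes was 0.01. With the score of 22 proliferation genes edgeR called 0 members, against 0% of genes tested. Slopes on that score were below 0 for 24 of the 33 genes and above 0 for 9, against 52.0% of all genes above 0, with medians of -0.19 and 0.01. One member, Cd68, had an unadjusted p under 0.05 (slope -0.61 ± 0.23), against 8.87% of genes tested, and DESeq2 called 0, against 0.772%. Without tumour 05 the count was 8 (24.2%), against 5.71% of genes tested, without tumour 06 it was 3, against 8.51%, without tumour 13 it was 2, against 6.12%, and without tumour 04 it was 0, against 7.3%. Between the 3 tag families edgeR called 0 members, against 0.0473% of genes tested. There 4 members had an unadjusted p under 0.05 (12.1%), close to the 12.9% of genes tested. That count was 2 without tumour 04 or 05, against 15.5% and 6.35% of genes tested, 6 without tumour 08, against 15.2%, and 7 (21.2%) without tumour 09, against 18.9%. DESeq2 called Cd68, against 4.01% of genes tested, and edgeR called Cd68 and Cd14 once tumour 09 was left out, against 1.1%.

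**Figure D4:**
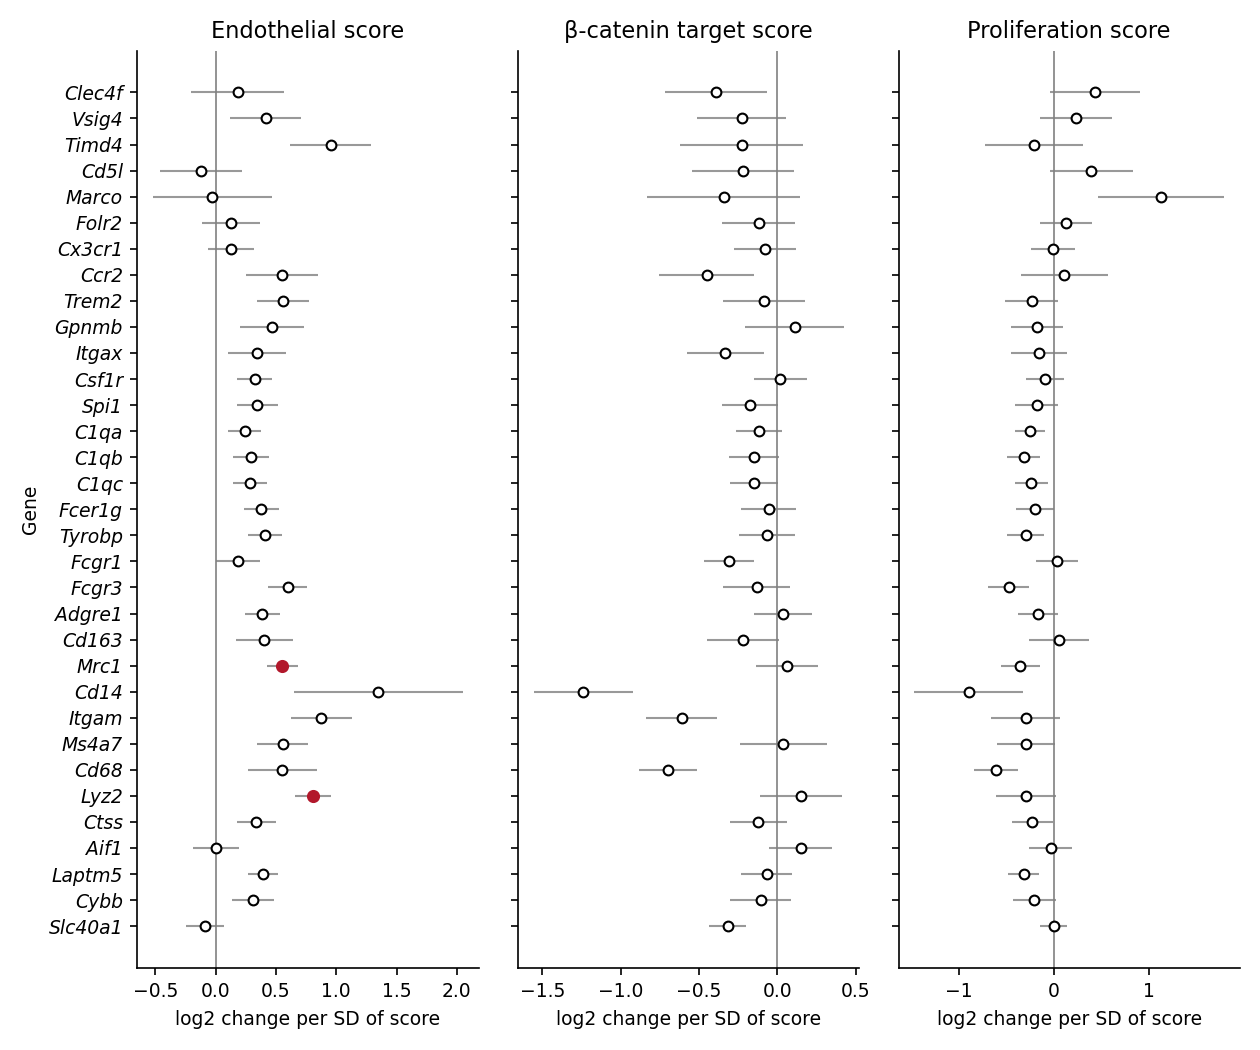
Change in log2 CPM of each of the 33 genes for 1 SD of the endothelial, β-catenin target or proliferation score over the 10 tumours, with bars for 1 SE. Filled red points mark Lyz2 and Mrc1, the genes with an adjusted p under 0.05 (edgeR), which were found for the endothelial score only in this fit.

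Csf1r was tested against its regulator Spi1, and 4 ligands were tested against their receptors, 5 pairs in all. Spi1 and Csf1r went together over the 10 tumours (Pearson r = 0.90, two-sided permutation test p = 7e-05, adjusted over the 5 pairs p = 0.00035; Spearman rho = 0.93, permutation adjusted p = 0.00185). Without tumours 06 and 09, the farthest from the median of Spi1, r was 0.90 (exact permutation test, p = 0.000174, n = 8), and on deviations from the family means r was 0.94. Il34 ranged from 0.370 CPM in tumour 13 through 0.694 to 2.75 CPM in tumour 07 and had r = 0.69 with Csf1r (permutation p = 0.0267, adjusted p = 0.0445; rho = 0.78, permutation adjusted p = 0.0254). Without tumours 04 and 07 that r was 0.63 (exact permutation test, p = 0.0925, n = 8), close to the value over all 10, and on deviations from the family means r was 0.83. Ccl2 ranged from 0.317 CPM in tumour 13 through 0.755 to 4.49 CPM in tumour 09 and had r = 0.70 with Ccr2 (permutation p = 0.0262, adjusted p = 0.0445). Its rho was 0.49 (permutation p = 0.154, adjusted p = 0.257), r was 0.42 without tumours 04 and 09 (exact permutation test, p = 0.30, n = 8) and 0.82 on deviations from the family means. Without tumour 09 alone r was 0.35 (permutation test, adjusted p = 0.590), and without tumour 04 alone it was 0.76 (permutation test, adjusted p = 0.0375), so the relation of Ccl2 and Ccr2 rests on tumour 09. With a single tumour left out, Il34 and Csf1r kept their call without tumour 04 or 05 and lost it when any of tumours 06 to 13 was left out (r = 0.54 without tumour 07 to 0.71 without tumour 11, permutation adjusted p = 0.0541 to 0.226). Ccl2 and Ccr2 kept theirs without tumour 04 or 12 and also lost it without tumour 05, 06, 07, 08, 10, 11 or 13, when r was 0.69 to 0.76 (permutation adjusted p = 0.0505 to 0.122). Csf1, at 12.4 to 30.5 CPM, had r = -0.03 and rho = -0.08 with Csf1r (permutation p = 0.926 and 0.837), r was -0.44 without tumours 04 and 11, and its sign changed with the scaling. Cx3cl1, at 1.99 to 19.1 CPM, had r = 0.06 and rho = 0.16 with Cx3cr1 (permutation p = 0.875 and 0.656), and r was 0.21 without tumours 12 and 13.

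**Figure D5:**
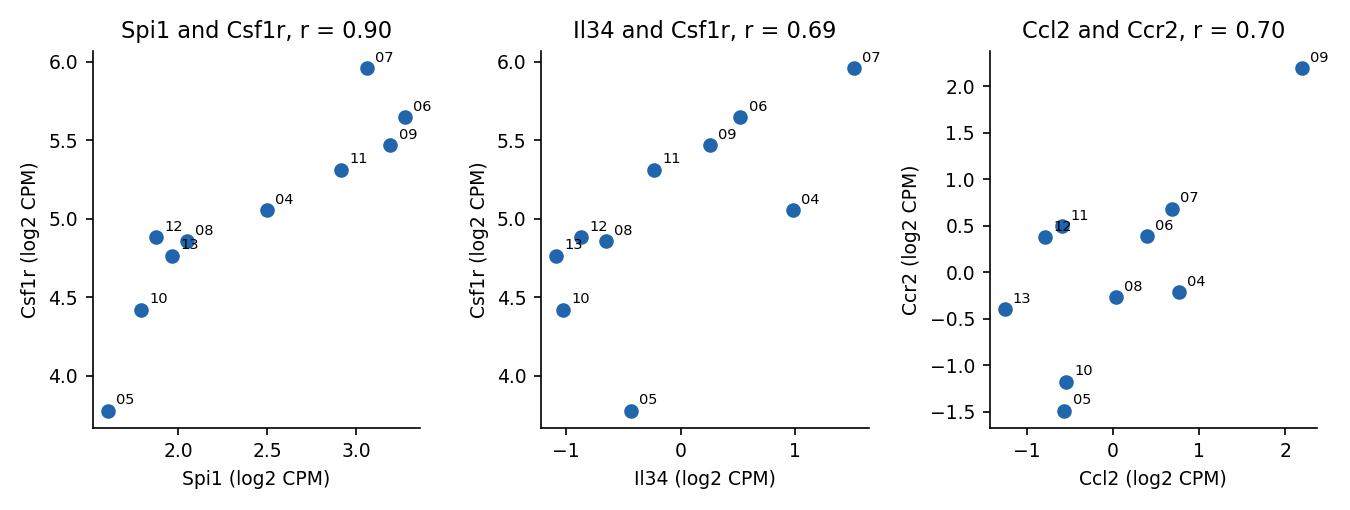
Log2 CPM of Spi1 against Csf1r, of Il34 against Csf1r and of Ccl2 against Ccr2, with 1 point per tumour. The points of Spi1 and Csf1r lie along a line (r = 0.90), while the pair Ccl2 and Ccr2 (r = 0.70) is stretched by tumour 09.

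Other genes of the pathway were taken from lists, whose counts stand against the shares of all genes given above: 10.1% with an SD above 1 and, with the endothelial score, 2.95% called higher, 16.1% at an unadjusted p under 0.05 and 6.48% called by DESeq2. Of 8 transcription factors of Kupffer cells all were tested, 1 had an SD above 1 (Tfec) and edgeR called 0 with the endothelial score, where 2 had an unadjusted p under 0.05 and DESeq2 called 1. Tfec was at 0.256 CPM in tumour 05 and at 7.28 CPM in tumour 09, and its slope was 1.11 (adjusted p = 0.0756). Nr1h3, which encodes LXRα and is also made by hepatocytes, had an SD of 0.29 and its lowest value of 83.7 CPM in tumour 05. Of 7 niche and growth ligands tested, 3 rose with the endothelial score: Dll4, a Notch ligand (adjusted p = 0.00184), Tgfb1 (0.000363) and Il34 (0.0276), with 4 at an unadjusted p under 0.05 and 3 called by DESeq2. Dll4, Tgfb1 and Il34 were each highest in tumour 07, and the calls of list genes were not followed with tumours left out. Of 8 monocyte chemokines tested Ccl2 and Ccl7 rose with it (adjusted p = 0.0288 and 0.0102), with 4 at an unadjusted p under 0.05 and 2 called by DESeq2. Of 4 monocyte genes tested edgeR called Ly6c1, which endothelium can express too (adjusted p = 0.0455), while all 4 had an unadjusted p under 0.05 and were called by DESeq2. The summed level of the 16 other myeloid genes, among them Ptprc and Cd74, was lowest in tumour 10 (204 CPM) and highest in tumour 11 (474 CPM), and tumour 05, at 225 CPM, was the third lowest. Cd74 alone was at 268 CPM in tumour 11. By the mean log2 CPM of this list tumour 09 was highest (3.62), tumour 11 was at 3.15, and tumours 10 and 05 were lowest (2.17 and 2.22). Of these 16 genes 0 had an SD above 1, and Arhgdib rose with the endothelial score (adjusted p = 0.0136), with 4 at an unadjusted p under 0.05 and 2 called by DESeq2. Among 12 genes of lipid-laden and lysosome-rich macrophages 3 had an SD above 1, and with the endothelial score edgeR called 0, 2 had an unadjusted p under 0.05 and DESeq2 called 1. Of 9 tested activation genes Il1b rose with the endothelial score (adjusted p = 0.0136), with 5 at an unadjusted p under 0.05 and 4 called by DESeq2. Of 4 neutrophil genes tested edgeR called 0 with it, 3 had an unadjusted p under 0.05 and DESeq2 called 3. Among dendritic cell genes 1 of 6 tested, Clec10a, rose with the endothelial score (adjusted p = 0.00317), with 3 at an unadjusted p under 0.05 and 1 called by DESeq2, and the summed level of all 9 was lowest in tumour 05 (3.00 CPM) and highest in tumour 07 (14.2 CPM).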

How the data were processed

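RNA of 10 tumours was extracted with Trizol and made into stranded mRNA libraries. The authors deposited raw counts of reads per gene with no normalisation, in 1 table of 39179 gene identifiers. Per the labels' processing notes, TopHat2, HTSeq and GRCm38 were used. The table ends with 5 summary lines of the kind HTSeq writes, whereas the study's methods name STAR and featureCounts for single-end reads. Whether counting used the strand is not given in the sources used here. Reads with more than 1 alignment made up 45.4% to 57.9% of all lines, those outside genes 3.60% to 6.97% and ambiguous reads 1.16% to 1.66%. None of these entered library sizes. Columns were matched to samples by a number found in 1 title only, on the assumption that titles carry library numbers, and the other 9 columns were not used.

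Symbols came from GENCODE M39 by stable identifier (34199 of 39179, 87.3%), and all 33 members matched. Positions came from RefSeq on GRCm38. Counts were scaled with TMM (edgeR 4.0.16, R 4.3.3), and log2 CPM used a prior count of 2. Genes with a mean of at least 0.5 CPM (14786) were tested, which all 33 members were. Each gene was fitted on 1 score at a time, the mean log2 CPM of a list in SD units, with glmQLFit and glmQLFTest, and called at an adjusted p below 0.05 (Benjamini-Hochberg). An SE is the slope divided by the root of F. Pairs were tested by permutation with 100000 resamples (Python 3.11.15, numpy 2.4.6, scipy 1.17.1). The script was tested on simulated data. Alternatives were DESeq2 1.42.0 (size factors and test), a prior count of 0.5, filterByExpr, no filter, median scores, the tag family in the fit and leaving out each tumour or gene. The members, the 21 lists and the tests were chosen with earlier results of these data known. Resident and recruited genes and called members were named with all 10 values, other members by lowest, median and highest. Outside the set, list genes and the 5 genes most like each score were named.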

Additional observations from a re-analysis of the deposited data

Results flagged for a closer look

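A gap ratio, how far the most extreme tumour lies from the next one as a share of the full range in log2 CPM, was computed for the 33 genes, the resident and recruited scores and their difference, 36 measures in all. Dixon's 95% critical value for 10 samples is passed by chance in about 1 of 20 measures, and these measures are not independent. It was passed by 6, each time by tumour 05 at the low end. The ratios were 0.754 for Folr2, 0.709 for Clec4f, 0.644 for Vsig4, 0.574 for Aif1, 0.572 for Cd5l and 0.573 for the resident score. They remained above the critical value with DESeq2 size factors and with a prior count of 0.5. The recruited score had a ratio of 0.197 and Ccr2, highest in tumour 09, one of 0.411. Tumours 05, 06 and 07, the 3 tumours with high Rpph1, had resident scores of -1.16, 3.08 and 2.24. The part of the difference in Rpph1 in these scores was not tested.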

How the results depend on the processing

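No paired analysis was possible because the 10 tumours form 1 group. Of the 33 genes 9 had an SD above 1. The count was 3 of the 25 genes left by filterByExpr, which drops 5 of the 6 resident genes (against 5% of all genes left), 6 without tumours 05, 06 and 07 together (against 8.65%, an alternative chosen after seeing the data), and 4 to 11 with each tumour left out, the lowest without tumour 05. The range of the resident score was 4.52 log2 units, 5.06 with a prior count of 0.5, 1.93 to 4.52 with each tumour left out and 1.93 without tumours 05, 06 and 07. With a gene left out it was 4.22 to 4.81. For the endothelial score the main count of 2 members was 4 with DESeq2, 1 with the tag family in the fit and 1 to 2 with each tumour left out, where Itgam was the gene called without tumour 07. Without tumours 05, 06 and 07 it was 3 (Cd14, Itgam and Lyz2), against 3.6% of genes tested. For β-catenin targets the main count of 0 was 2 with DESeq2, 1 (Lyz2) without tumours 05, 06 and 07 (against 1.68% of genes tested) and 0 to 2 with each tumour left out. For the tag families it was 1 with DESeq2 and 0 to 2 with each tumour left out. Pearson's r of Csf1 and Csf1r reversed to 0.0082 with DESeq2 size factors and to 0.35 without tumours 05, 06 and 07. The pairs of Il34 and Ccl2 with their receptors lost their calls with a prior count of 0.5 (r = 0.69 and 0.68) and without tumours 05, 06 and 07 (0.65 and 0.70). With each tumour left out, an alternative also chosen after seeing the data, r was 0.54 to 0.83 for Il34, 0.35 to 0.77 for Ccl2, -0.21 to 0.24 for Csf1, -0.20 to 0.25 for Cx3cl1 and 0.89 to 0.92 for Spi1, so that the sign of Csf1 and of Cx3cl1 is not settled. The cause of these changes was not tested. Timd4, Marco and Ccr2 are limited by depth, with 4 counts or fewer in tumour 05.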

Other observations

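Some list genes that are no members differed widely between the tumours and are given here as values, with no test. Hmox1, which breaks down haem in macrophages and hepatocytes, was at 793 CPM in tumour 05 and 396 CPM in tumour 06, while the other 8 tumours did not exceed 175 CPM. Spp1, the secreted protein osteopontin, was at 2.81 CPM in tumour 05 and 3.97 CPM in tumour 13, and at 77.0 CPM in tumour 09. Cd74, which accompanies MHC class II, was at 31.6 CPM in tumour 05 and 268 CPM in tumour 11.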
